A study of Mus musculus with 16 samples.

Results

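The genes described here encode 10 basic helix-loop-helix (bHLH) transcription factors of muscle and early mesoderm, namely Myod1, Myf5, Myf6, Myog, Msgn1, Mesp1, Mesp2, Hand1, Hand2 and Twist1. They were taken as a named set out of 22367 protein-coding genes, and all 10 were found in the annotation. A peak was assigned to a gene when it overlapped the gene or lay within 5 kb of it on the mouse genome mm9. Peaks of total Jarid2 and of its form dimethylated at a lysine (Jarid2-K116me2) came from undifferentiated E14 cells, a mouse embryonic stem cell (ESC) line, with 1 sample per antibody. Broad peaks of H3K27me3 came from 12 libraries in 6 groups of 2 biological replicates. They covered Jarid2-/- cells (KO), the same cells rescued with a bacterial artificial chromosome (BAC) carrying Jarid2 (WT rescue) and the same cells rescued with a BAC carrying the K116A form (K116A rescue), each as ESC and as embryoid bodies (EBs). ESC were grown in serum with LIF, and EBs were formed in hanging drops and collected after 8 days without LIF. All 12 H3K27me3 libraries therefore lacked the endogenous Jarid2 gene, and the WT rescue was the control. Each rescue was a line made by integrating the BAC into the KO cells, so the Jarid2 form and the line it came from cannot be told apart. EBs are mixtures of cell types, so a mark in few cells and a weaker mark in many cells cannot be told apart.

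bHLH factors dimerise with broadly expressed E proteins and bind E-box motifs, and Id proteins block this by taking up the E proteins. Myod1, Myf5, Myf6 and Myog commit cells to skeletal muscle and drive their differentiation. Msgn1 acts in presomitic mesoderm, Mesp1 in the earliest cardiac mesoderm and Mesp2 in somite segmentation. Hand1 and Hand2 act in heart, limb and extraembryonic tissue, and Twist1 in cranial and limb mesenchyme. Jarid2 is a cofactor of PRC2, the complex that methylates histone H3 at lysine 27, and H3K27me3 is the mark PRC2 leaves at repressed developmental genes. The files hold no RNA, so the identity of the cells could not be checked by expression.

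The libraries differed widely in what was called. The Jarid2 list held 4992 peaks and the Jarid2-K116me2 list 4502 peaks. Between 1478 and 14125 broad peaks of H3K27me3 were listed per library, covering 2.31 to 55.0 Mb. In ESC, replicate 1 covered 8.03 Mb in KO, 2.31 Mb in WT rescue and 10.4 Mb in K116A rescue, against 22.8 to 29.2 Mb in the 3 replicates 2. In EBs, KO covered 33.6 and 55.0 Mb, WT rescue 19.7 and 22.5 Mb and K116A rescue 23.2 and 37.2 Mb. These differences move with several values below, and their part in them was not tested. The paper called replicates 2 the higher quality samples and defined its set of peaks for comparing ESC and EBs from them. By its read counts after removal of duplicates, both WT rescue EB libraries had fewer reads than the other EB libraries. ESC WT rescue replicate 1 had the most reads of the ESC libraries but the least coverage. The part of read depth was not tested. The number of reads per peak was not used here, so the depth behind a single peak is unknown.

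To show the sequence at gene starts with and without Jarid2, the 250 bases before the start are given for Twist1 and Hand2, both under Jarid2, and for Mesp2, Myog and Myf5, which had no Jarid2 peak. Those of Mesp1 and Msgn1 overlap or may overlap an annotated UTR on mm9 and are given by their counts only. The bases are from RefSeq (table of GRCm38.p6), and each matched a single place on the mm9 chromosome given. They are written 5′ to 3′ on the strand of the gene in lower case, with every CG dinucleotide in capitals.
Twist1, chr12:34642286-34642535, plus strand: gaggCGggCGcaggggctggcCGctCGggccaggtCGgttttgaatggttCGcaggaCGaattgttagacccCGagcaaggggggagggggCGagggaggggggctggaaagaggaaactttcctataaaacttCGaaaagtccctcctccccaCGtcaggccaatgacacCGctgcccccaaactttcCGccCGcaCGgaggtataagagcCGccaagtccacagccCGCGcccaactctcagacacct
Hand2, chr8:59799530-59799779, plus strand: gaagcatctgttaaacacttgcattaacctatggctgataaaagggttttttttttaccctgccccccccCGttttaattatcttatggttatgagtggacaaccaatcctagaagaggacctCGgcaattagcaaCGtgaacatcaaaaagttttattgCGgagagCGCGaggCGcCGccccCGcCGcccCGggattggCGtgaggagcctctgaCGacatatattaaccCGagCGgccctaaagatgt
Mesp2, chr7:86955363-86955612, plus strand: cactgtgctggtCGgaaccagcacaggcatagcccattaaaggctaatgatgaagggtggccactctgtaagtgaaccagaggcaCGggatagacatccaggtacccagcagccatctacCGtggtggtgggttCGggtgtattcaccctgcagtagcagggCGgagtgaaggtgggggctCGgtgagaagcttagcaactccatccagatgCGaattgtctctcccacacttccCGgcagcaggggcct
Myog, chr1:136186331-136186580, plus strand: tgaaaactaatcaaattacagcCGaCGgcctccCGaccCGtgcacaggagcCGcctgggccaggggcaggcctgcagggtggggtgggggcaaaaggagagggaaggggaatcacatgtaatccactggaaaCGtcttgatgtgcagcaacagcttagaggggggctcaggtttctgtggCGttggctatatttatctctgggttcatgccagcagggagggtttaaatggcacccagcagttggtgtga
Myf5, chr10:106923191-106923440, minus strand: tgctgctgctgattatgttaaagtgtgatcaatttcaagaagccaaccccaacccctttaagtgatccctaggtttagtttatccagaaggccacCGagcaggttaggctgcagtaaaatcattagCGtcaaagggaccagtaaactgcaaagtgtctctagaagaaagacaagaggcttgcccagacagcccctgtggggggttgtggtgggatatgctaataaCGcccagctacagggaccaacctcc

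In these stretches Twist1 held 18 CG dinucleotides, Hand2 15, Mesp2 8, Myog 7 and Myf5 3. Mesp1, with all 250 bases under its Jarid2 peak, held 2, the fewest of the 7 genes matched, and Msgn1, without Jarid2, held 4. The Mesp1 stretch, 86938477 to 86938726, lay largely inside the gene as annotated, which starts at 86938674 on the minus strand. With Mesp1 counted, CG content of this stretch did not separate the genes with Jarid2 from those without. Without Mesp1, the genes with Jarid2 held 15 and 18 and those without 3 to 8. The median of 32851 RefSeq promoters of the same length was 6. All 250 bases of Twist1 and of Hand2 lay under both a Jarid2 and a Jarid2-K116me2 peak, whereas none of the bases of Mesp2, Myog and Myf5 did. The RefSeq table held 7 of the 10 genes, without Myod1, Myf6 and Hand1. The E-box CANNTG, which reads the same on both strands, occurred 2 times in Hand2, Myog and Mesp1, 1 time in Mesp2 and Msgn1 and not in Twist1 or Myf5, while 66.2% of all these promoters held at least 1. A match to these letters is a description of the sequence and not a bound site.

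Over a wider window of 1 kb on either side of the gene start, CpG content varied among the genes from low to very high. The ratio of observed to expected CpG was 0.816 at Hand2 (139 CpG) and 0.811 at Twist1 (184 CpG). It was 0.557 at Mesp1, 0.536 at Myod1 and 0.423 at Hand1, the other genes with Jarid2. Without Jarid2, Mesp2 had 0.483, Myf5 0.376, Msgn1 0.311, Myog 0.296 and Myf6 0.289. Hand1 thus carried Jarid2 at a lower ratio than Mesp2, which did not, so the groups overlapped. The median was 0.599 over the 4052 protein-coding genes with a Jarid2 peak and 0.405 over the 18315 without. CpG content was therefore below the median of Jarid2 genes at Mesp1, Myod1 and Hand1 and above it at Hand2 and Twist1.

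**Figure D1:**
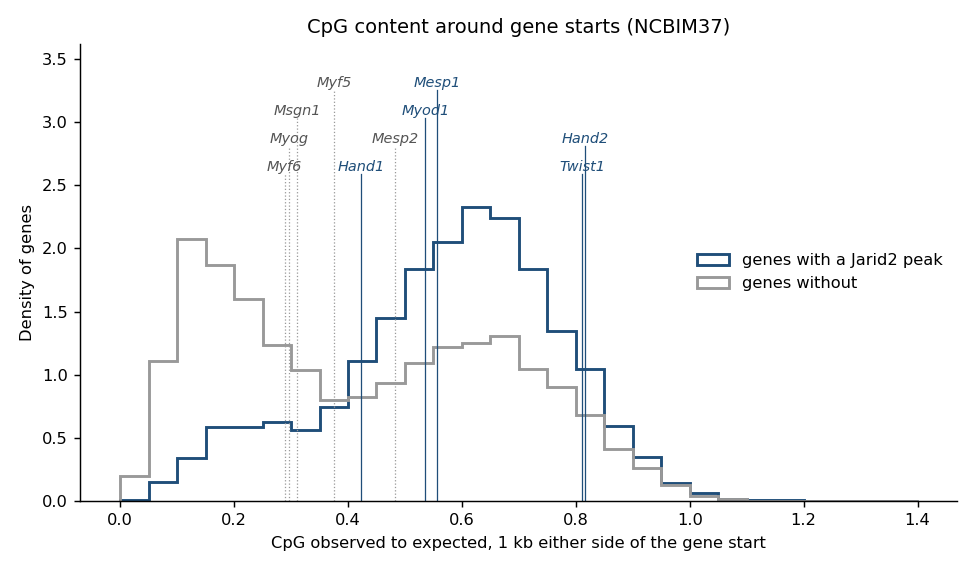
Observed to expected CpG within 1 kb of the gene start (x axis) and the density of genes (y axis), for protein-coding genes with a Jarid2 peak (blue) and without one (grey); vertical lines mark the 10 bHLH genes, solid with Jarid2 and dotted without. Twist1 and Hand2 sit at the right at 0.811 and 0.816, while Myog, Myf6 and Msgn1 sit between 0.289 and 0.311.

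Among the myogenic factors, Myod1 was the gene with Jarid2 in ESC. Myod1 (chromosome 7, 53631844 to 53634462, plus strand) carried a Jarid2 peak of 2148 bp from -652 to 1495 bp relative to the gene start. The MACS score of a peak is its log10 p-value multiplied by minus 10, and the score of this peak was 755.66. A weak second Jarid2 peak with a score of 105.26 followed within the gene. The Jarid2-K116me2 peak of Myod1 had a score of 724.89, was 1632 bp wide and lay wholly under the main Jarid2 peak. The midpoints of all 3 peaks fell in coding exons.

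Myf5, Myf6 and Myog had no peak of either antibody within 5 kb. Myf5 and Myf6, which lie side by side on chromosome 10 with 6726 bp between them, were 209336 and 219288 bp from the nearest Jarid2 peak. Myog, the factor of terminal myoblast differentiation, was much closer, with a Jarid2 peak of score 186.71 at 5838 bp and a Jarid2-K116me2 peak of score 184.57 at 5780 bp. Ppfia4, the nearest protein-coding gene, lay 4236 bp from Myog, closer to it than either peak, and which gene these peaks belong to was not tested. Within 10 kb, Myog would be counted too and both totals would be 6.

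In presomitic and early mesoderm genes, Jarid2 separated the neighbours Mesp1 and Mesp2 on chromosome 7. Mesp1 (86937127 to 86938674, minus strand) had a Jarid2 peak with a score of 511.35 and a Jarid2-K116me2 peak with a score of 525.72. The Jarid2 peak covered 92.8% of the gene and its start, whereas the narrower Jarid2-K116me2 peak began 18 bp after the start. Mesp2 (86955613 to 86958317, plus strand) had no peak, and the one at Mesp1, 16680 bp away, was its nearest Jarid2 peak. Msgn1 had no peak within 5 kb either, and its nearest Jarid2 peak lay 56319 bp away.

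Hand1, Hand2 and Twist1 had the strongest and widest Jarid2 binding of the set. All reached a score of 3100 with both antibodies, the value at which scores pile up, so their order cannot be read from the score. At Hand1 (chromosome 11, 57642207 to 57646320, minus strand), the main Jarid2 peak was 8019 bp wide and the Jarid2-K116me2 peak 7519 bp, and each covered the whole gene. Upstream of Hand1 lay a second pair of peaks, scored 398.86 (Jarid2) and 267.78 (Jarid2-K116me2).

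Hand2 (chromosome 8, 59799780 to 59803314, plus strand) had the widest peak. A single Jarid2 peak of 20839 bp ran from -3448 to 17390 bp relative to the gene start. Under it lay 2 Jarid2-K116me2 peaks at 3100, of 13098 and 5959 bp, the second beyond 5 kb of the gene. At Twist1 (chromosome 12, 34642536 to 34644682, plus strand) the Jarid2 peaks were 5839 and 9306 bp wide, both at 3100. The first covered the gene and its start and the second began 2809 bp after the start. The Jarid2-K116me2 peak over the gene had a score of 3100 and the one further on 863.38, and another of 3860 bp at 3100 lay beyond 5 kb. At each of the 5 genes the Jarid2-K116me2 peaks lay at least 99.9% under Jarid2 peaks.

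**Figure D2:**
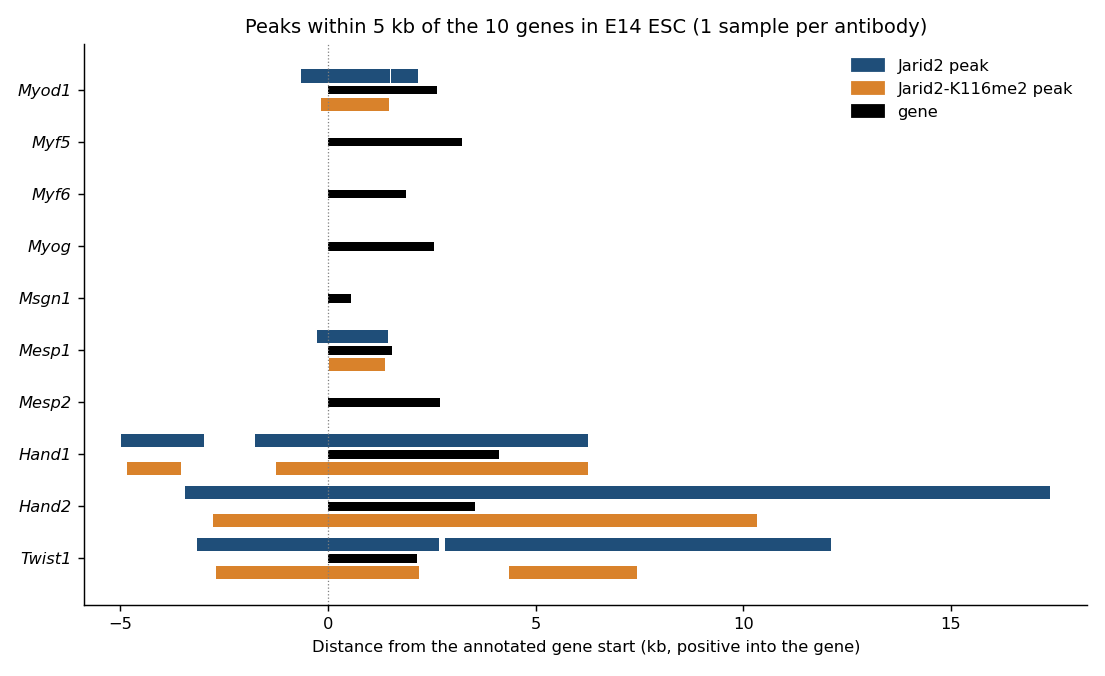
Peaks of Jarid2 (blue) and Jarid2-K116me2 (orange) within 5 kb of each gene (black) in E14 ESC, as distance from the gene start in kb on the x axis, with the 10 genes on the y axis. Myod1, Mesp1, Hand1, Hand2 and Twist1 carry peaks of both antibodies, up to 20839 bp wide at Hand2, and the other 5 genes carry none.

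In total, 5 of 10 genes had a Jarid2 peak, against 18.1% of all protein-coding genes. The same 5 of 10 had a Jarid2-K116me2 peak, against 16% of all. Of these 5, 3 scored 3100 or more with Jarid2, against 19.9% of the genes with a Jarid2 peak. With Jarid2-K116me2 it was again 3 of 5, against 26.5%. Over all genes with a peak, the Jarid2 score had a median of 745.51 and the Jarid2-K116me2 score one of 1030.48, so that Myod1 lay near the median for Jarid2 and Mesp1 below it with both antibodies. With 1 sample per antibody, none of these differences has a replicate error and none was tested.

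**Figure D3:**
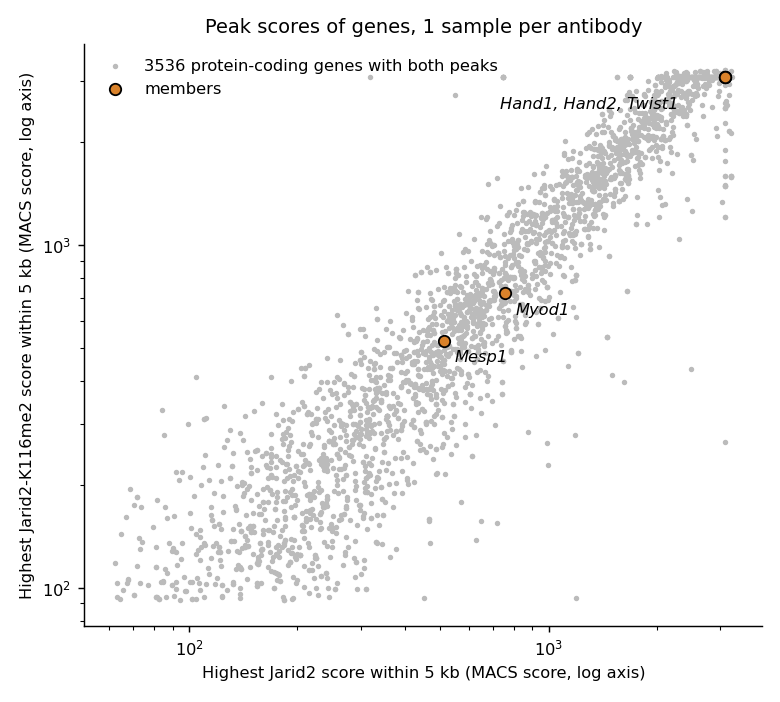
Highest MACS score within 5 kb of a gene for Jarid2 (x axis) and Jarid2-K116me2 (y axis), both log axes without units, for protein-coding genes with both peaks (grey) and the 5 bHLH genes with both peaks (orange). Hand1, Hand2 and Twist1 share the corner at 3100, while Myod1 (755.66 and 724.89) and Mesp1 (511.35 and 525.72) sit in the middle of the cloud.

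H3K27me3 was then compared at the same genes between ESC and EBs and between the lines. In ESC, both replicates had a broad peak within 5 kb at 5 of 10 genes in KO (all genes: 11.8%), at 3 in WT rescue (all genes: 3.84%; 6 of 10 without replicate 1, the library with the least coverage) and at 4 in K116A rescue (all genes: 14%). In EBs it was 4 genes in KO (all genes: 26.6%), 5 in WT rescue (all genes: 17.5%) and 5 in K116A rescue (all genes: 20.1%). In all 12 libraries the mark was listed at Hand1 and Hand2, 2 of the 5 genes with Jarid2, against 17.9% of all genes with a Jarid2 peak. Twist1 and Mesp1 had it in 11 libraries and Myod1 in 9. Of the 5 genes without Jarid2, Mesp2 had it in 5 libraries and Myog in 1, whereas 32.7% of all genes without Jarid2 had it in at least 1. The peak near Myog, in ESC KO replicate 2, lay 7441 to 10542 bp after the Myog start, and Ppfia4 was 4236 bp from Myog. No library listed H3K27me3 within 5 kb of Myf5, Myf6 or Msgn1.

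To compare the groups, the share of the window of 5 kb on either side of the gene start that broad peaks covered was computed for each library. The share depends on the calling of peaks and is not a read density. The difference of group means was tested with limma across 6747 genes covered in at least 2 libraries, among which 6 of the 10 genes were tested. Comparisons of EBs with ESC, of mutant lines with WT rescue in EBs and of the changes between lines use some of the same libraries. The exact permutation test of 2 libraries against 2 cannot give a p below 0.333.

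At Myod1, the covered share in ESC was 0 and 44.1% in KO, 0 and 26.4% in WT rescue and 0 and 25.2% in K116A rescue, in the order of replicates 1 and 2. In EBs it was 43.0 and 54.2% in KO, 5.67 and 21.4% in WT rescue and 32.9 and 37.7% in K116A rescue. Every ESC replicate 1 was thus at 0, and in EBs both mutant lines lay above WT rescue without overlap. Of all tested genes, 53.5% did so in KO and 32.7% in K116A rescue. The mean was 48.6% ± 8 (SD, n = 2) in EB KO and 13.5% ± 11.1 (SD, n = 2) in EB WT rescue, a difference of 35.1 points (SE 16.3) that did not pass the test (limma, adjusted p = 0.199). With replicate number as a block in the fit it was 35.09 points and passed (limma, adjusted p = 0.033), although replicate numbers were not taken to pair the samples. K116A rescue exceeded WT rescue in EBs by 21.8 points (SE 16.3, limma adjusted p = 0.839). All 9 broad peaks at Myod1 covered the gene start. In EBs the peak was 567 and 2138 bp long in WT rescue and 4299 and 5425 bp in KO.

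At Mesp1, ESC had 6.02 and 41.5% in KO, 0 and 29.2% in WT rescue and 8.7 and 37.6% in K116A rescue. EBs had 18.3 and 28.8% in KO, 34.0 and 28.7% in WT rescue and 41.2 and 52.1% in K116A rescue. K116A EBs lay above both K116A ESC and WT rescue EBs without overlap, by a mean of 23.5 points (SE 15.6, limma adjusted p = 0.558) and 15.3 points (SE 15.6, limma adjusted p = 0.975). Neither difference passed the test. Of all tested genes, 34.3% and 32.7% lay higher without overlap in these 2 comparisons. In ESC KO and K116A replicate 1 the peak lay downstream of the Mesp1 start, whereas the other 9 peaks covered it.

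Mesp2 had H3K27me3 in short peaks, which covered its start in 4 of the 5 libraries that had one. ESC had 6.13 and 15.2% in KO, 0 and 9.12% in WT rescue and 0 and 12.8% in K116A rescue. In EBs both KO and both WT rescue libraries were at 0, and K116A rescue had 0 and 16.5%. The ESC peaks were 613 to 1520 bp long and each covered the Mesp2 start, at which no Jarid2 peak was listed in E14 ESC. The decrease of 10.7 points from ESC to EBs in KO (SE 6.3) did not pass the test (limma, adjusted p = 0.269).

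**Figure D4:**
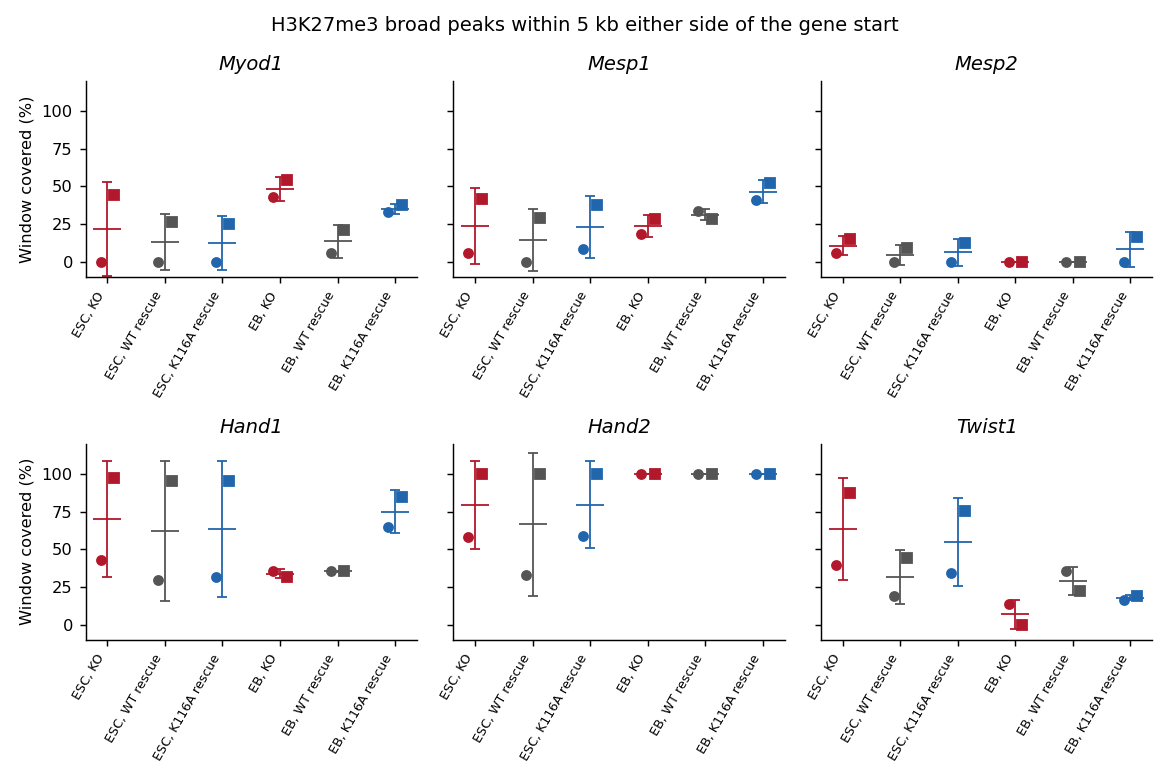
Share of the window of 5 kb on either side of the gene start covered by H3K27me3 broad peaks (y axis, percent) in the 6 groups (x axis); circles are replicate 1, squares replicate 2, horizontal bars the mean and whiskers the SD (n = 2). Hand2 is at 100% in all EB libraries, Twist1 lies between 0 and 35.7% in EBs, and in ESC the replicates 1 lie below the replicates 2 at each of these genes.

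At Hand1, ESC had 43.0 and 97.1% in KO, 29.3 and 95.2% in WT rescue and 31.4 and 95.3% in K116A rescue, so the replicates of each group differed widely. EBs had 35.8 and 31.6% in KO, 35.2 and 35.5% in WT rescue and 64.7 and 84.9% in K116A rescue. In KO and WT rescue EBs the peak began 1425 to 1840 bp after the gene start. In K116A rescue EBs it began before the start and covered it. The K116A EBs exceeded the WT rescue EBs by 39.5 points (SE 28), without overlap (all tested genes: 32.7%), but the difference did not pass the test (limma, adjusted p = 0.823). This SE is not the spread of the EB replicates alone. The SD (n = 2) was 0.2 in WT rescue EBs and 14.3 in K116A EBs, against 38.2 to 46.5 in the ESC groups.

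Hand2 lay in a much longer domain. Its window was covered to 100% in the 6 EB libraries and in all ESC replicates 2, and to 58.4, 32.9 and 59.1% in the ESC replicates 1 of KO, WT rescue and K116A rescue. Since the window was full, the length of the domain showed more than the share. In EBs the broad peak was 31595 and 32897 bp long in KO, 32490 and 32157 bp in WT rescue and 48098 and 48742 bp in K116A rescue. In K116A rescue it reached 34884 and 34862 bp past the Hand2 start, and in the other EB libraries 19622 to 20113 bp. The lincRNA 5033428I22Rik, from 11135 to 19699 bp past the start, overlapped the domain in all 6 EB libraries, and Scrg1, the nearest protein-coding gene, was 131406 bp from Hand2. The highest MACS2 score at Hand2, whose scale was not stated, was 193.43 and 262.85 in K116A EBs and 82.29 to 127.81 in the other EBs. The highest score of the whole library, a single peak each, was 763.9 and 657.0 in K116A EBs and 987.3 to 1172 in the others. The part of differences between libraries in the score at Hand2 was not tested.

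This measure was added after the values of Hand2 were seen. The H3K27me3 within 5 kb of the gene was longer in both K116A EB libraries than in all other EB libraries at Mesp1, Hand1 and Hand2, out of 6 of the genes with a broad peak in EBs. Among 8690 protein-coding genes with a broad peak in EBs it was 11.4%. Since the values of Hand2 were seen first, its place in this count is no support for a difference from that share. No test was made of the length.

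At Twist1 the coverage in EBs and ESC did not overlap in the mutant lines. No difference passed the test as set, but 1 passed in other fits to all libraries. ESC had 39.6 and 87.3% in KO, 19.0 and 44.1% in WT rescue and 34.1 and 75.3% in K116A rescue. EBs had 13.8 and 0% in KO, 35.7 and 22.3% in WT rescue and 16.5 and 19.0% in K116A rescue. EBs lay below ESC without overlap in KO (all tested genes: 5.65%) and in K116A rescue (all tested genes: 6.6%), and the groups overlapped in WT rescue. EB KO replicate 2, with no peak at Twist1, was the library with the most peaks and the largest covered length. The part of library coverage in the values at Twist1 was not tested. The mean in KO went from 63.4% ± 33.8 (SD, n = 2) in ESC to 6.9% ± 9.7 (SD, n = 2) in EBs. This difference of -56.5 points (SE 19) missed the threshold of 0.05 (limma, adjusted p = 0.0624). With replicate number as a block in the fit it was -56.55 points and passed (limma, adjusted p = 0.0336). It also passed with the log2 of the mean score plus 1 (-4.29, limma adjusted p = 0.0416), a measure chosen after seeing the data. Without ESC KO replicate 1 the difference was -80.42 points. In K116A rescue the difference was -37 points (SE 19, limma adjusted p = 0.43). In WT rescue it was -2.5 points (SE 19, limma adjusted p = 1). The changes in KO and WT rescue differed by -54 points (SE 26.9), which did not pass the test either (limma, adjusted p = 0.374).

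The position of the mark at Twist1 differed from that of Jarid2. The Jarid2 peak covered the Twist1 start, but 2 of the 11 libraries with H3K27me3, ESC replicates 2 of KO and K116A rescue, had a broad peak over the start. In the other 9 libraries the upstream peak ended between -1066 and -253 bp relative to the start, short of the CpG-rich bases printed above. At Hand2, the 3 ESC replicates 1 had peaks on both sides of the start and none over it. At Hand1 no peak covered the start in 7 of 12 libraries, where the main peak began 1425 bp or more after it and ESC KO replicate 1 also had an upstream peak. In contrast, all peaks at Myod1 covered the start.

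**Figure D5:**
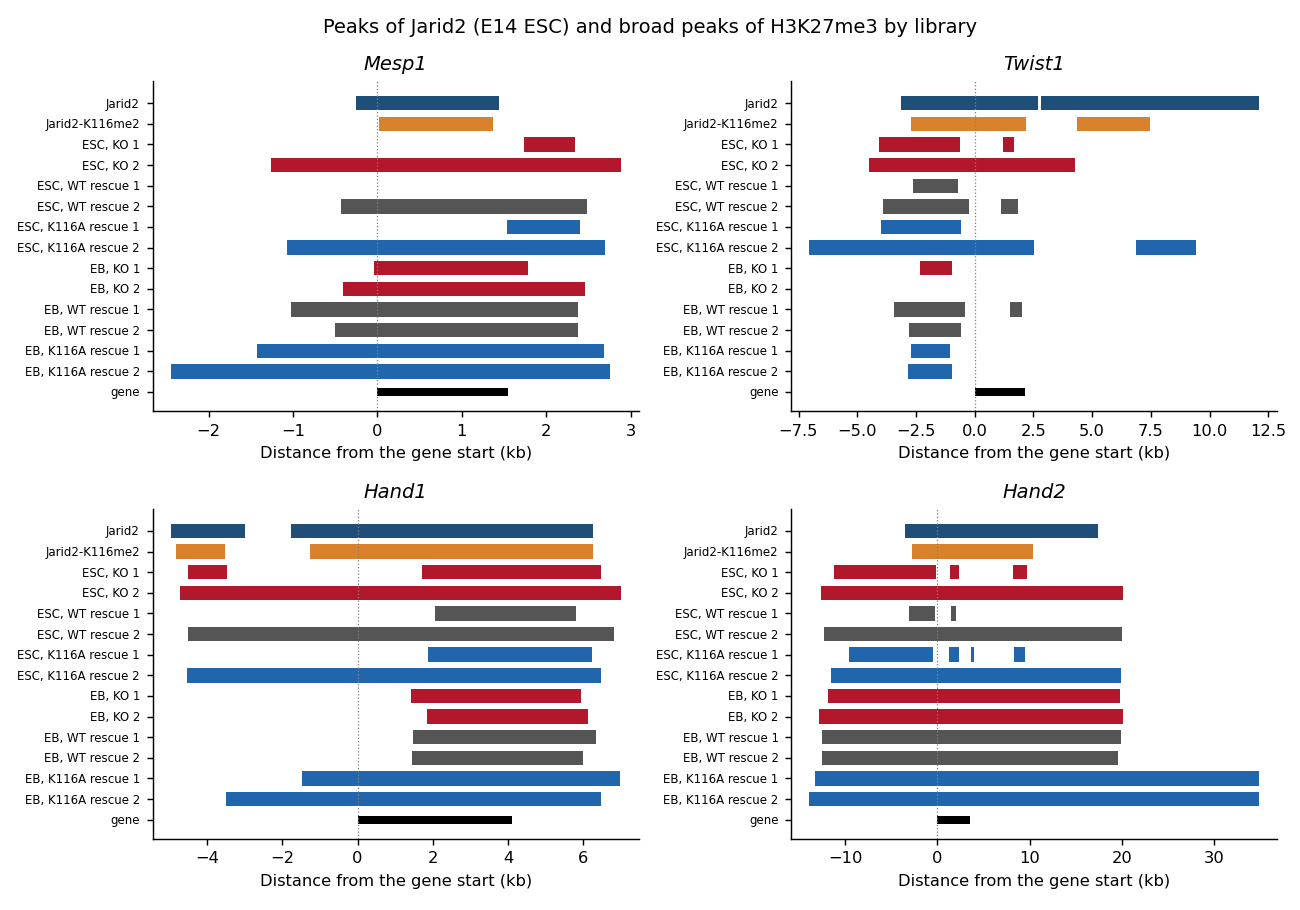
Jarid2 and Jarid2-K116me2 peaks within 5 kb of the gene in E14 ESC and H3K27me3 broad peaks in each of the 12 libraries (y axis; KO red, WT rescue grey, K116A rescue blue, gene black) at Mesp1, Twist1, Hand1 and Hand2, as distance from the gene start in kb (x axis, with its own range in each panel). In EBs of K116A rescue the Hand2 domain reaches up to 34884 bp past the start, and at Twist1 most H3K27me3 peaks end before the start.

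Counted without a test, the covered share in EB KO was below ESC KO without overlap at Mesp2, Hand1 and Twist1, 3 of the 6 tested genes, against 5.65% of all tested genes. In K116A rescue, EBs lay above ESC at Myod1 and Mesp1 (all tested genes: 34.3%) and below it at Twist1 (all tested genes: 6.6%). Against WT rescue EBs, KO EBs were higher at Myod1 (all tested genes: 53.5%) and lower at Twist1 (all tested genes: 4.62%). K116A EBs were higher than WT rescue EBs at Myod1, Mesp1 and Hand1 (all tested genes: 32.7%) and lower at Twist1 (all tested genes: 6.68%). None of the 6 lay higher in EB KO than in ESC KO without overlap (all tested genes: 45.4%). Between EBs and ESC of WT rescue, no gene of the 6 was free of overlap (all tested genes: 19.9% higher and 0.193% lower in EBs). The share of genes higher in EB KO was large across the genome, as was the length covered in these libraries.

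None of the 6 tested genes passed an adjusted p of 0.05 in any of the 7 limma contrasts of the fit without a replicate block. Across all tested genes, limma called 24.2% for EBs against ESC in KO, 2.56% in K116A rescue and 0% in WT rescue, where 386 genes had an unadjusted p under 0.05. It called 18.6% for KO against WT rescue in EBs and 1.36% for K116A against WT rescue. The change from ESC to EBs differed from that of WT rescue at 7.13% of genes in KO and 0.0593% in K116A rescue. Several of these counts rested on single libraries. For EBs against ESC, the 173 genes called in K116A rescue became 6 without ESC K116A replicate 2 and 527 without EB K116A replicate 1, and the 0 in WT rescue became 212 without ESC WT rescue replicate 2. With each library left out in turn, the 1254 genes of KO against WT rescue in EBs ranged from 645 to 1713 and the 92 of K116A against WT rescue from 4 to 343. The 481 and 4 genes whose change differed from WT rescue in KO and K116A ranged from 209 to 1299 and from 0 to 169.

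The wider network around these factors was described with further gene lists, whose counts are to be read beside the 18.1% (Jarid2) and 16% (Jarid2-K116me2) of all protein-coding genes. Called genes are to be read beside the shares of all tested genes that limma called in each contrast, given above. Differences between lists were not tested. Of 13 other bHLH genes, some of them not mesodermal (such as Ptf1a, Ferd3l and Bhlha15), 9 had Jarid2 and the same number Jarid2-K116me2. Of these, 6 scored 3100 or more with Jarid2, among them Lyl1 (3183.97) and Tal1 (3100), both of blood formation, and Tcf21 (3100), a factor of epicardium and kidney mesenchyme. Where scores tied, here and below, genes were named by their Jarid2-K116me2 score and then by the width of the Jarid2 peak. Lyl1 and Tal1 had H3K27me3 in all 12 libraries and Tcf21 in 4. From ESC to EBs, 3 of 10 tested genes rose in KO, 1 in K116A rescue and none in WT rescue, where 24.2, 2.56 and 0% of all tested genes were called. These were Msc (30.9 points, SE 7.1, limma adjusted p = 0.0136), Tcf15 (33 points, SE 6.7, limma adjusted p = 0.0077) and Tcf23 (19.2 points, SE 4.5, limma adjusted p = 0.0145) in KO, and Tcf15 in K116A rescue (42.2 points, SE 6.7, limma adjusted p = 0.0192). Tcf15, or paraxis, acts in somites, and neither it nor Tcf23 had a Jarid2 peak in ESC. In EBs, Msc and Tcf23 were also called higher in KO than in WT rescue. Outside EB KO, Tcf23 had a broad peak in 1 K116A EB library only. It thus met the filter of 2 covered libraries through EB KO, and its p-values are no support for the differences. These genes were named because they passed the test, as were those named as called below.

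Of 12 dimerisation partners, inhibitors and MEF2 cofactors of the bHLH factors, 6 had Jarid2 and 6 Jarid2-K116me2. Id4 (3100) and Id2 (2312.34), inhibitors that sequester E proteins, and Mdfi (806.39), an inhibitor of the myogenic factors, scored highest. The E protein genes Tcf3 and Tcf4 had no Jarid2 peak and no H3K27me3 in any library. The E protein gene Tcf12 went the other way, with scores of 467.28 (Jarid2) and 134.72 (Jarid2-K116me2) and H3K27me3 in 9 of 12 libraries. Mef2b was the called gene of this list, higher in EB KO than in ESC KO by 25.4 points (SE 5.2, limma adjusted p = 0.00835) and than in WT rescue EBs by 28.5 points (SE 5.2, limma adjusted p = 0.00599). Outside EB KO, Mef2b had a broad peak in 1 ESC KO library only. It thus met the filter of 2 covered libraries through EB KO, and its p-values are no support for the differences. None of the 9 tested genes was called lower.

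Regulators upstream of the myogenic factors had Jarid2 at 11 of 14 genes and Jarid2-K116me2 at 11. Pax3 and Pax7, which mark muscle progenitors, had scores of 3100 and Jarid2 peaks of 33379 and 20455 bp. H3K27me3 was listed at Pax7 in all 12 libraries and at Pax3 in 11. Of 10 tested genes, Gli2, a mediator of hedgehog signalling, was called lower in EBs of both mutant lines. It differed from WT rescue by -8.8 points in KO (SE 1.2, limma adjusted p = 0.00146) and by -8.8 points in K116A rescue (SE 1.2, limma adjusted p = 0.0125). Gli2 had a broad peak in no other group than EB WT rescue. It thus met the filter of 2 covered libraries only through the group where it was higher, and these p-values are no support for the difference.

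Primitive streak and mesoderm genes had Jarid2 at 17 of 19, and Jarid2-K116me2 at 17. Of these, 11 had a Jarid2 score of 3100, among them Foxc1, Evx1 and Pdgfra, with Jarid2 peaks of 13168, 11078 and 9948 bp. Fgf8, a growth factor of the primitive streak, was the called gene among 17 tested. From ESC to EBs in KO it fell by 69.4 points (SE 11.9, limma adjusted p = 0.00361) and differed from WT rescue EBs by -63.3 points (SE 11.9, limma adjusted p = 0.00683). Its change in KO differed from that in WT rescue by -71.4 points (SE 16.9, limma adjusted p = 0.0395), a call that was lost without either EB WT rescue library (limma adjusted p = 0.117 and 0.149). Tbx6, which acts in presomitic mesoderm like Msgn1, had no Jarid2 peak and no H3K27me3 in any library.

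Of 12 cardiac regulators, 10 had both Jarid2 and Jarid2-K116me2, and 8 scored 3100 or more with Jarid2. Isl1 (3151.55), Gata4 (3100) and Tbx20 (3100), factors of cardiac progenitors, had Jarid2 peaks of 14488, 14352 and 14235 bp. None of the 8 tested genes passed the test in any contrast. Gata4 had H3K27me3 in both replicates of WT rescue and K116A rescue EBs and in neither KO EB library. The same held for Evx1, Id1 and Id2 of the lists above. The share of all genes with this pattern was not computed, and the pattern was not tested.

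Structural genes of muscle, which the myogenic factors activate, had Jarid2 at 7 of 26 genes and Jarid2-K116me2 at 5. Cacna1s, the calcium channel of skeletal muscle, had the highest score (576.94), followed by Des (377.27) and Ryr1 (330.06), and 14 of the 26 had no H3K27me3 in any library. In KO EBs, Myl4 was higher than in WT rescue EBs by 17.6 points (SE 2.4, limma adjusted p = 0.00146). Acta1 was higher by 37.6 points (SE 8.9, limma adjusted p = 0.0194). These were 2 of 3 tested genes in a contrast where 18.6% of all tested genes were called. The call of Acta1 was lost when any single KO or WT rescue EB library was left out. Outside EB KO, Myl4 had a broad peak in 1 ESC KO library only. It thus met the filter of 2 covered libraries through EB KO, and its p-value is no support for the difference. Of 12 pluripotency genes, active in ESC, 2 had Jarid2, namely Esrrb (2868.23) and Prdm14 (1194.94). Klf4, without Jarid2, rose from ESC to EBs in K116A rescue by 87.9 points (SE 10.6, limma adjusted p = 0.0062), in KO by 41 points (SE 10.6, limma adjusted p = 0.0221), and Utf1 rose in KO by 55.5 points (SE 13.8, limma adjusted p = 0.0191). Of the 22 calls made in these lists, 17 were lost under at least 1 alternative, most often when a library was left out. The 5 that were kept were Tcf15 and Fgf8 from ESC to EBs in KO, Gli2 in KO against WT rescue EBs and both calls of Mef2b. Since Gli2 and Mef2b met the filter only through the group where they were higher, being kept is no support for their calls. Of the 12 pluripotency genes, Nanog, Zfp42, Dppa4, Dppa5a and Tcl1 had no H3K27me3 in any library. The others had it, Esrrb in all 12 libraries, including those of ESC. Klf4 had it in 6 libraries, Utf1 in 5, Prdm14 and Sox2 in 2, and Pou5f1 and Tdgf1 in 1.

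The protein-coding genes whose covered share over the 12 libraries was most like the median profile of the 10 genes were Depdc7, Tubb6, BC005764, Prtn3 and Rftn1, with mean absolute differences of 3.15, 3.3, 3.37, 3.37 and 3.39 points. BC005764 and Prtn3 had the same value in every library. This median profile rose no higher than 28.3%, in ESC KO replicate 2, since 4 of the 10 genes were at 0 throughout. Rftn1 had a Jarid2 peak (score 1280.44) and the others had none.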

How the data were processed

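Peak lists of 14 of the 16 samples were used, and the 2 inputs were not analysed here. Per the labels and methods, the authors mapped reads to mm9 with Bowtie2 2.1.0, called Jarid2 peaks with MACS 1.4.2 against the input at an FDR limit, and broad H3K27me3 peaks with MACS2 2.0.10, each sample separately. The deposited score of the Jarid2 lists is minus 10 times the log10 p-value. The deposited score of the broad peaks is printed as the caller gave it, and its scale was not stated. Neither score is normalized for depth, and the lists give neither reads nor fold enrichment. All peaks lay inside the NCBIM37 chromosomes (21 of 21), and genes were those of its GENCODE annotation.

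Peaks within 5 kb of a gene were counted (Python 3.11.15, numpy 2.4.6). The percent of 5 kb on either side of the gene start covered by broad peaks was fitted with limma 3.58.1 (R 4.3.3, eBayes with trend, 1 mean per group, Benjamini-Hochberg over 6747 genes, 6 residual degrees of freedom). In simulated data for K116A against WT rescue in EBs, 67 of 100 genes changed by 60 points and 14 of 100 changed by 20 points were recovered. The members and the gene lists were chosen with earlier results of these data known. Named genes were the 10 members, up to 3 genes per list with the highest Jarid2 score, and the 5 genes most like the members, and other genes named as called, as nearest gene or as lacking a peak were chosen after their values were seen. A gene that this rule names is not reported here. Alternatives were other distances, windows, score limits and filters, a replicate block and each library left out.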

Additional observations from a re-analysis of the deposited data

How the results depend on the processing

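The counts of members with Jarid2 or Jarid2-K116me2 stayed at 5 when peaks had to overlap the gene, lie within 1 kb, score at least 500 or pass the same lowest score, and became 6 within 10 kb. With a score of at least 50, chosen after seeing the data, H3K27me3 in both replicates was found at 3 members in ESC KO, 3 in EB WT rescue and 3 in EB K116A rescue. In at least 1 replicate of ESC WT rescue it was found at 6, and without each replicate of that group at 3 to 6.

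The number of genes called by limma depended on single libraries. With each library left out in turn it ranged from 1241 to 1949 for EBs against ESC in KO. It ranged from 0 to 212 in WT rescue (212 without ESC WT rescue replicate 2) and from 6 to 527 in K116A rescue (6 without ESC K116A replicate 2, 527 without EB K116A replicate 1). For KO against WT rescue in EBs it ranged from 645 (without EB WT rescue replicate 1) to 1713, and for K116A against WT rescue from 4 (without EB WT rescue replicate 2) to 343 (without EB K116A replicate 1). For the difference of the changes it ranged from 209 (without ESC WT rescue replicate 1) to 1299 (without EB KO replicate 1) in KO and from 0 to 169 (without EB K116A replicate 1) in K116A rescue. With a window of 2 kb, 725 genes were called for EBs against ESC in KO, 573 for KO against WT rescue in EBs, 236 for the difference of the changes in KO and 39 in K116A rescue. With the log2 of the mean score plus 1, chosen after seeing the data, 273 were called for EBs against ESC in K116A rescue, 163 for K116A against WT rescue in EBs and 11 for the difference of the changes in K116A rescue. The cause was not tested. Libraries left alone in a group were assumed to vary like the other groups.

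Replicate numbers were not taken to pair the samples, which needed a correlation of same-numbered deviations over 0.1 in every pair of groups. Over 15 pairs it was -0.009 to 0.699, and 7 exceeded 0.1. With a replicate block, 378 genes were called for EBs against ESC in K116A rescue (173 without) and 165 for K116A against WT rescue in EBs (92 without). Under the block, Myod1 in EB KO against WT rescue (35.09 points, limma adjusted p = 0.033) and Twist1 in EB KO against ESC KO (-56.55 points, limma adjusted p = 0.0336) passed. Twist1 also passed without ESC KO replicate 1 (-80.42 points, limma adjusted p = 0.0241) and with the log2 score (-4.29, limma adjusted p = 0.0416). The other 710 of 714 values of the members under alternatives stayed on the same side of the threshold, and 27 of all, none of them past it, had the other sign. The alternatives on fold enrichment were not run, since the lists give none.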
